A study of Mus musculus with 6 samples.

Results

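Forkhead genes other than the FOXA genes were read from RNA sequencing of TKPTS cells, a mouse line derived from the proximal tubule of the kidney. They are the genes whose symbol runs from Foxb to Foxs followed by a number, leaving out antisense transcripts whose symbol ends in os. The rule found 32 genes among the 29595 listed genes, and 23 of them passed the filter on low counts that left 17824 genes for testing. The other 9 that failed the filter are named further down. The annotation holds 9 further mouse forkhead genes by the same rule (Foxd3, Foxe1, Foxe3, Foxi1, Foxi2, Foxi3, Foxn4, Foxr1 and Foxr2). They were not found by name among the listed genes, so they have no values here.

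Cells in 1 group had received the plasmid pcDNA3.1-Hnf3a-Flag, which carries Hnf3a, the older name of Foxa1, with a Flag tag. Cells in the other had received the empty pcDNA3.1-Flag plasmid. RNA was taken 24 h after transfection, and 3 libraries were made of each group, called Hnf3a and pcDNA from here on. The labels do not say whether the 3 libraries of a group came from separate cultures, so the p-values measure the spread between these libraries, which may be technical. Transfection reaches a share of the cells that the sources do not state, so a level is an average over cells with and without the plasmid.

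Each library held 60473818 to 71154667 counts over all genes. Foxa1 stood at 334, 296 and 284 FPKM (fragments scaled to transcript length and library size) in the Hnf3a libraries and at 9.49, 9.54 and 9.96 FPKM in the pcDNA libraries, so the labels fit the plasmid in all 6. RNA read from the plasmid and RNA from the cell's own Foxa1 gene cannot be told apart in these values. Of the markers of the tissue, the kidney epithelial genes Krt8, Epcam and Pax8 were at 27.5 FPKM or more in every library, as was Krt18 (called higher, log2 fold change 0.20), but Cdh16 was at 2.32 to 2.82 FPKM and Pax2 at 0.0635 to 0.171 FPKM, while 6 listed proximal tubule genes summed to only 1.68 to 2.13 FPKM and the endocytic receptors of that segment, Lrp2 and Cubn, stayed at or under 0.0534 FPKM. Genes of fibroblasts and pericytes, 9 of them, summed to 0.133 to 0.211 FPKM in pcDNA and to 0.281, 8.17 and 10.1 FPKM in Hnf3a replicates 1, 2 and 3. By edgeR 6 of the 9 were tested, 5 had an unadjusted p under 0.05 and 0 were called, against 13.5% and 3.17% of all tested genes. Counts of the macrophage gene C1qa were 0, 27 and 27 in Hnf3a, beside 0 in each pcDNA library, while the 7 listed macrophage genes summed to 13.0 to 16.2 FPKM in Hnf3a and 12.4 to 14.1 FPKM in pcDNA, most of it Cd68. Results below for forkhead genes and for called FOXO target genes are therefore also given without both Hnf3a replicates 2 and 3 where that changes a call. Calls of marker genes, Krt18 here and Cdh5, Tek and Slc26a4 below, are given from all 6 libraries only.

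Forkhead factors share a DNA-binding domain of winged-helix fold and differ in the rest of the protein. FOXA factors can open closed chromatin. FOXO factors are held out of the nucleus by AKT, the kinase downstream of insulin, and turn on genes of cell-cycle arrest, oxidative stress defence and autophagy when they are free. FOXM1 drives genes of mitosis, FOXJ1 drives genes of the motile cilium, and FOXP and FOXK factors act largely as repressors.

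The coding sequences of the 32 genes were compared with that of Foxa1, since reads of a transcript made in such excess could in principle be counted under a related gene. Over a block of 73 codons of the forkhead domain (codons 174 to 246 of Foxa1), of which 68 to 73 could be aligned in each member, the members had between 48.5% and 76.3% of aligned bases in common with Foxa1. The longest run of identical bases between a member's transcript and that of Foxa1 was 11 to 23 bases over the 32 genes, against 38 for Foxa2, and the reads were 150 bases long. A stretch of 60 coding bases within the domain is given for 7 members. It was picked as the window aligned without gaps that had the highest mean identity to Foxa1 over these 7. Each is printed 5′ to 3′ on the coding strand, with capitals for the bases that are the same in all 7.
Foxc1: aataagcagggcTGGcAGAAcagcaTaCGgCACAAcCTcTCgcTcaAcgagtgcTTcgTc
Foxf1: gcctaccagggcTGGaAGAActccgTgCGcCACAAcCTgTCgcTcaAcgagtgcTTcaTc
Foxd1: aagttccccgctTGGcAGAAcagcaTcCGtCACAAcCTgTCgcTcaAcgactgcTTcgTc
Foxj1: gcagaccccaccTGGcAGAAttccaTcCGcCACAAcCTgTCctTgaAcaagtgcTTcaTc
Foxk2: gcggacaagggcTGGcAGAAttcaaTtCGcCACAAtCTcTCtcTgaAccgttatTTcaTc
Foxo3: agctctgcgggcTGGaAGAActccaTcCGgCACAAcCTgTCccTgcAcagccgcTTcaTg
Foxm1: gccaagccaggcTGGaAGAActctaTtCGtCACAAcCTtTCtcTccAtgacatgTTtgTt

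In build GRCm38 these stretches lie at chr13:31807559-31807618 on the plus strand for Foxc1, chr8:121084660-121084719 on the plus strand for Foxf1 and chr13:98355127-98355186 on the plus strand for Foxd1, each within 1 coding exon. The stretches of the remaining genes run across an intron, between chr11:116332436-116334059 (minus) for Foxj1, chr11:121290873-121296070 (plus) for Foxk2, chr10:42197860-42274833 (minus) for Foxo3 and chr6:128369468-128370998 (plus) for Foxm1. Of the 60 bases, 24 were the same in all 7 genes, in runs of at most 5. Over whole coding sequences the longest runs shared by 2 members were 53 bases between Foxc1 and Foxc2, 47 between Foxd1 and Foxd2, and 41 between Foxf1 and Foxf2, all shorter than a read.

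In pcDNA cells, 18 of the 32 genes had a mean of at least 1 FPKM and 10 had at least 5 FPKM. Levels between genes are compared in FPKM, which is per length. Foxk2, a repressor of autophagy genes, was highest at 24.3 ± 0.385 FPKM (SD, n = 3), followed by the mitotic factor Foxm1 at 21.9 ± 0.862 and by Foxp4, a repressor of the FOXP group, at 15.1 ± 0.834. The libraries of Foxk2, Foxm1 and Foxp4 did not overlap, so these 3 places in the order held in every pcDNA library. Foxj1 (11.96 ± 0.401) and Foxo1 (11.9 ± 0.344) could not be ranked against each other within their spread. Foxo3 (9.11 ± 0.714) and Foxc1 (8.59 ± 0.634) overlapped too, as did Foxk1 (6.01 ± 0.304) with Foxj3 (5.80 ± 0.290), and Foxo4 (5.11 ± 0.284) with Foxn2 (4.98 ± 0.399).

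**Figure D1:**
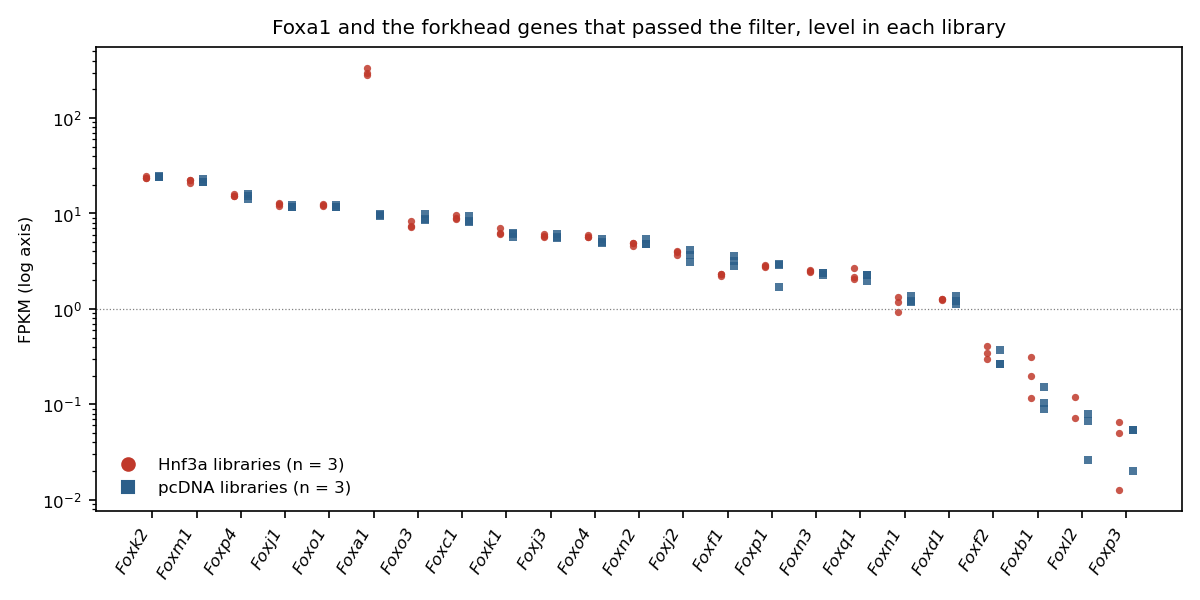
Level of Foxa1 and of the forkhead genes reported here that passed the filter, in FPKM on a log axis, with 1 point per library (red circles, Hnf3a; blue squares, pcDNA) and genes ordered by their pcDNA mean. Foxa1 is the single gene whose groups lie far apart, 284 to 334 FPKM against 9.49 to 9.96, and the value of 0 for Foxl2 in Hnf3a replicate 1 has no place on the log axis and is left out.

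Below these, Foxj2 stood at 3.62 ± 0.489 FPKM, Foxf1 at 3.19 ± 0.369, Foxp1 at 2.50 ± 0.712, Foxn3 at 2.34 ± 0.0605, Foxq1 at 2.16 ± 0.182, Foxn1 at 1.25 ± 0.1002 and Foxd1 at 1.23 ± 0.116 in pcDNA. After Foxd1 the level dropped to 0.300 ± 0.0637 FPKM for Foxf2 and 0.115 ± 0.0337 for Foxb1, and every further member was under 0.1. The cells thus held transcripts of the FOXO, FOXK, FOXJ, FOXN and FOXP groups together. Of genes known from few tissues, Foxl2 of the ovary and Foxp3 of regulatory T cells were near 0. Others were not, among them Foxn1 of thymic epithelium and hair at 1.25 FPKM and Foxf1 of mesenchyme and vessels at 3.19 FPKM.

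Foxa1 was the sixth forkhead gene by FPKM in each pcDNA library and the first in each Hnf3a library. The 32 members summed to 142 ± 4.56 FPKM in pcDNA and 143 ± 3.69 FPKM in Hnf3a (SD, n = 3 each), and the 3 highest held 43.2 ± 0.894% and 42.9 ± 0.343% of that sum. The FOXA genes, which are almost all Foxa1, held 6.56 ± 0.0745% of the summed forkhead FPKM in pcDNA and 68.0 ± 1.28% in Hnf3a. Taken from counts, which are not per length, the shares were 3.69 ± 0.0618% and 53.9 ± 1.40%. The groups did not overlap by either measure, and with 3 libraries against 3 an exact permutation test cannot go below 0.1.

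**Figure D2:**
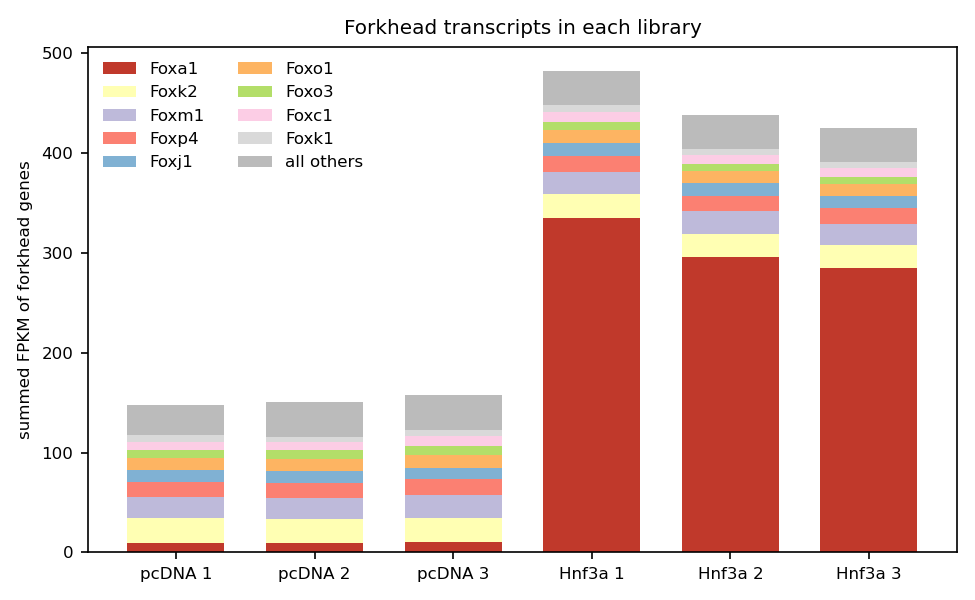
Summed FPKM of the forkhead genes in each library, stacked by gene for Foxa1 and the 8 members highest in pcDNA, with all others in grey. The part above Foxa1 has the same height in the 2 groups (mean 143 and 142 FPKM for the members), while the Foxa1 part grows from 9.66 to 305 FPKM on average.

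Of the 23 genes tested, Foxf1 alone passed the threshold of an adjusted p under 0.05 and was lower in Hnf3a, against a background of 3.17% of all tested genes called and 2.13% called lower (565 and 379 of 17824). Groups did not overlap for 4 of the 23, against 18.9% of all tested genes, and an unadjusted p was under 0.05 for 3 of the 23, against 13.5%. Among genes with at least 1 FPKM in pcDNA the call was 1 of 18 members, beside 4.06% of the 11907 genes of such level. The log2 fold change (Hnf3a minus pcDNA) was above 0 for 16 of the 23 and below 0 for 7, with a median of 0.044 beside 0.00085 over all tested genes. The median size of the change was 0.090 on the log2 scale, beside 0.088 over all tested genes. For 16 of the 18 members of at least 1 FPKM the 95% interval of the log2 fold change lay within 0.5 of 0, the exceptions being Foxf1 and Foxp1.

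**Figure D3:**
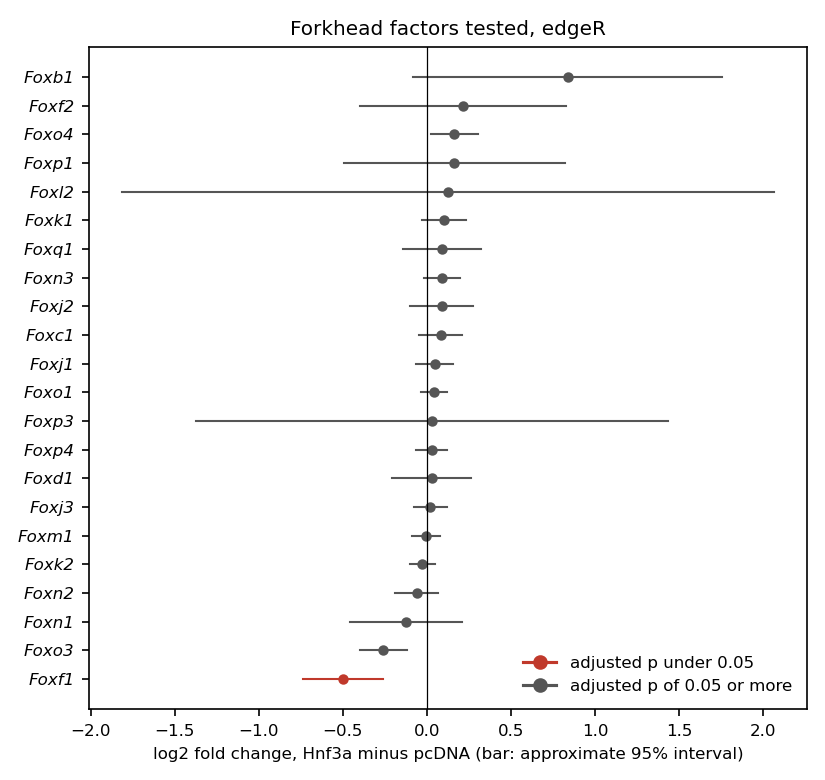
The log2 fold change (Hnf3a minus pcDNA) of the forkhead genes tested and reported here, with approximate 95% intervals from edgeR as horizontal bars. Foxf1 at -0.50 is the only gene with an adjusted p under 0.05, and the widest bars belong to Foxl2 and Foxp3, which had few counts.

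Foxf1, a factor known from the mesenchyme and vessels of the lung and gut, fell in Hnf3a. Its levels were 2.30, 2.30 and 2.23 FPKM in the Hnf3a libraries and 2.84, 3.58 and 3.16 FPKM in the pcDNA libraries. The Hnf3a libraries lay close together and below all 3 pcDNA libraries, which spread more. The level in Hnf3a was 0.708 times that in pcDNA (log2 fold change -0.50, SE 0.111, 95% interval -0.74 to -0.26, adjusted p = 0.0264 by edgeR). Hnf3a replicate 1, with few counts of fibroblast genes, was at 2.30 FPKM, and the part of fibroblast RNA in the Foxf1 values was not tested. Of 5 listed endothelial genes, 4 were tested and 2 called, in opposite directions, against 3.17% of all tested genes called. Cdh5 fell from 0.71, 0.904 and 0.924 FPKM to 0.349, 0.356 and 0.38 FPKM (log2 fold change -1.23, adjusted p = 0.000821 by edgeR). Tek, called higher (adjusted p = 0.0194 by edgeR), had 11, 15 and 16 counts in Hnf3a, near the floor of 12 counts, and 0 in each pcDNA library. The 5 summed to 0.462 to 0.49 FPKM in Hnf3a and 0.758 to 1.01 FPKM in pcDNA, and their part in the Foxf1 value was not tested. The call held in 8 of 16 alternatives. It was lost with limma on log2(FPKM + 0.1) (adjusted p = 0.075) and on log2(FPKM + 1) (0.0911) and with the replicate number as a block (0.054). It was also lost when any of 4 libraries was left out, Hnf3a replicate 2 (adjusted p = 0.111), Hnf3a replicate 3 (0.0779), pcDNA replicate 2 (0.152) or pcDNA replicate 3 (0.091), while the log2 fold change stayed between -0.57 and -0.35 over all alternatives. With a lone Hnf3a library, without both replicates 2 and 3, it was -0.47 with an adjusted p of 0.247.

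The neighbours of Foxf1 on chromosome 8 did not show a call. Fendrr, a long noncoding RNA that starts 1276 bases away on the other strand, had 71, 57 and 44 counts in Hnf3a and 35, 25 and 47 in pcDNA (log2 fold change 0.60, SE 0.344, adjusted p = 0.509 by edgeR). Mthfsd, the next coding gene, had a log2 fold change of -0.033 (SE 0.0614). Foxc2 and Foxl1, further along the same cluster, had at most 2 and 6 counts in any library. Foxf2, the closest relative of Foxf1 in sequence, had 52, 65 and 72 counts in Hnf3a and 43, 65 and 46 in pcDNA, with a log2 fold change of 0.21 (SE 0.283).

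**Figure D4:**
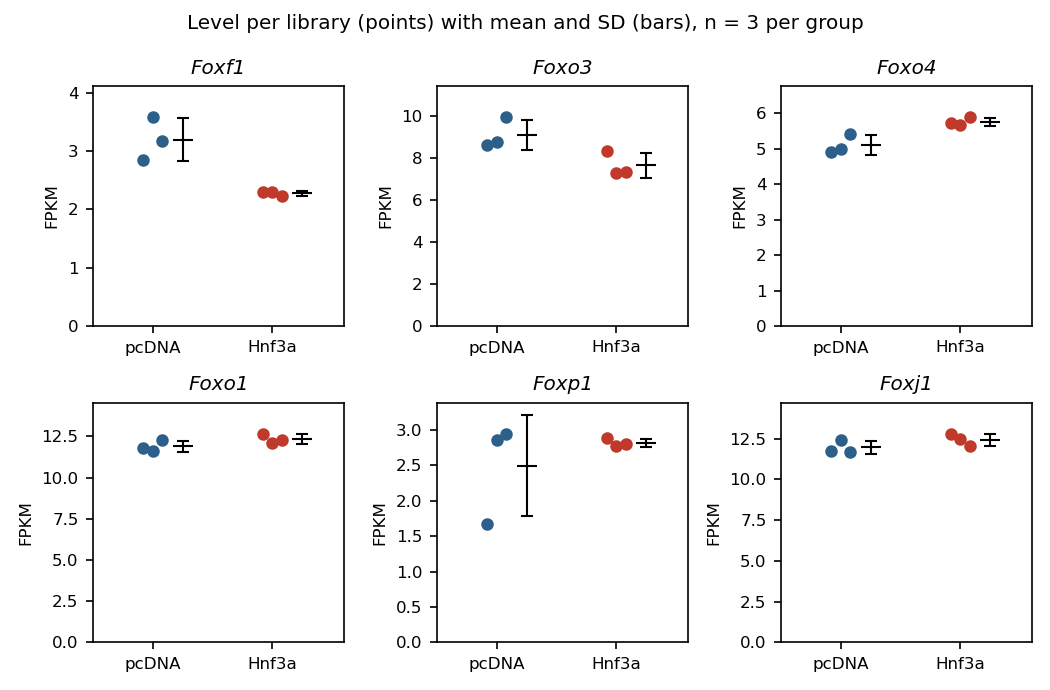
Level in FPKM of 6 forkhead genes in each library (points), with the mean and SD beside them, for pcDNA (blue) and Hnf3a (red), n = 3 each, with every axis starting at 0. The groups are apart for Foxf1, Foxo3 and Foxo4 and overlap for Foxo1, Foxp1 and Foxj1, and the low point of Foxp1 at 1.68 FPKM is pcDNA replicate 1.

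Of the 4 genes whose groups did not overlap, Foxo3 and Foxo4 were FOXO genes, and their values went opposite ways. Foxo3, a FOXO factor of stress resistance and quiescence, was at 8.33, 7.29 and 7.33 FPKM in Hnf3a and at 8.63, 8.76 and 9.93 FPKM in pcDNA. All 3 Hnf3a libraries were below all 3 pcDNA libraries, with Hnf3a replicate 1 close to the lowest of them. The log2 fold change of -0.26 (SE 0.0641, 95% interval -0.40 to -0.12) had an adjusted p of 0.0541 by edgeR, just outside the threshold. It passed in 5 alternatives, among them DESeq2 (adjusted p = 0.00264) and the fit without Hnf3a replicate 1 (0.00582), and it was -0.13 with an adjusted p of 0.530 without both Hnf3a replicates 2 and 3. Over all alternatives the adjusted p ran from 0.00264 to 0.530.

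Foxo4, the FOXO gene on the X chromosome, was at 5.72, 5.67 and 5.89 FPKM in Hnf3a and at 4.90, 5.00 and 5.43 FPKM in pcDNA. The Hnf3a libraries were all higher, with a log2 fold change of 0.16 (SE 0.0641) that did not pass (unadjusted p = 0.0236 and adjusted p = 0.26 by edgeR). Foxo1, the most abundant FOXO gene, was at 12.7, 12.1 and 12.3 FPKM in Hnf3a and at 11.8, 11.6 and 12.3 FPKM in pcDNA, overlapping groups with a log2 fold change of 0.044 (95% interval -0.033 to 0.12). Foxo6, a FOXO gene of the brain, had 0 counts in each Hnf3a library and 4, 0 and 10 in pcDNA, under the floor of 12 counts. The FOXO genes summed to 25.8 ± 0.852 FPKM in Hnf3a and 26.1 ± 1.35 FPKM in pcDNA (SD, n = 3 each), so the opposite values of Foxo3 and Foxo4 left the total within its spread.

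Known FOXO target genes, 35 in the list and 28 tested, had 5 calls, 2 higher and 3 lower in Hnf3a, against 3.17% over all tested genes. An unadjusted p by edgeR was under 0.05 for 14 of the 28, against 13.5% of all tested genes. Groups did not overlap for 14 of the 28, against 18.9%. Their median log2 fold change was 0.014, with 14 of 28 above 0. The list does not record in which direction FOXO factors move each gene, so these signs and this median do not measure FOXO activity. Selenop, which carries selenium in plasma, rose from 9.07, 9.05 and 9.64 FPKM to 12.4, 12.6 and 12.5 FPKM (log2 fold change 0.43, SE 0.0492, adjusted p = 0.000186 by edgeR) and passed in every alternative. Sod2, the manganese superoxide dismutase of mitochondria, fell from 4.80, 5.15 and 5.09 FPKM to 3.83, 3.90 and 4.21 FPKM (-0.34, SE 0.0494, adjusted p = 0.0013) and passed in 14 of 16 alternatives, with an adjusted p of 0.057 and 0.0674 in the 2 limma fits. The libraries of both genes were well apart.

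Of the cyclin D genes, 1 was called higher and 1 lower. Ccnd2, cyclin D2, rose from 0.305, 0.328 and 0.336 FPKM to 0.507, 0.501 and 0.429 FPKM (log2 fold change 0.55, SE 0.134, adjusted p = 0.0414), while Ccnd1, the far more abundant cyclin D1, fell from 146, 149 and 145 FPKM to 137, 137 and 136 FPKM (-0.11, SE 0.0257, adjusted p = 0.0355). Cited2, a partner of the coactivators CBP and p300, named because it completes the 5 calls, fell by 0.15 on the log2 scale (SE 0.0378, adjusted p = 0.0441). These 3 calls did not hold in most alternatives: Ccnd1 passed in 5 of 16, Ccnd2 in 6 of 15 and Cited2 in 5 of 16. Without both Hnf3a replicates 2 and 3 the adjusted p was 0.153 for Ccnd1, 0.15 for Ccnd2 and 0.33 for Cited2. The autophagy genes Gabarapl1 and Map1lc3b had log2 fold changes of -0.0044 and 0.035, and the gluconeogenic targets Pck1 and G6pc had at most 22 and 3 counts in any library.

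Genes that control the FOXO proteins, such as the kinases Akt1, Akt2 and Sgk1, the exporter Xpo1 and the deacetylase Sirt1, were all expressed at 1 FPKM or more. Of the 24 tested, 0 passed by edgeR, 2 had an unadjusted p under 0.05, against 13.5% of all tested genes, and DESeq2 called 2. The 2 are Rictor, the defining subunit of the kinase complex that activates AKT (log2 fold change -0.15, SE 0.0386, adjusted p = 0.0523 by edgeR), and Sgk3, a kinase related to AKT (-0.19, SE 0.0509, adjusted p = 0.0693), both chosen for mention after their values were seen. Rictor is also in the list of FOXO targets, so it counts in both lists. The median over the 24 control genes was 0.010, and the values ran from -0.19 to 0.12. RNA levels do not show the phosphorylation by which FOXO proteins are mainly controlled.

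**Figure D5:**
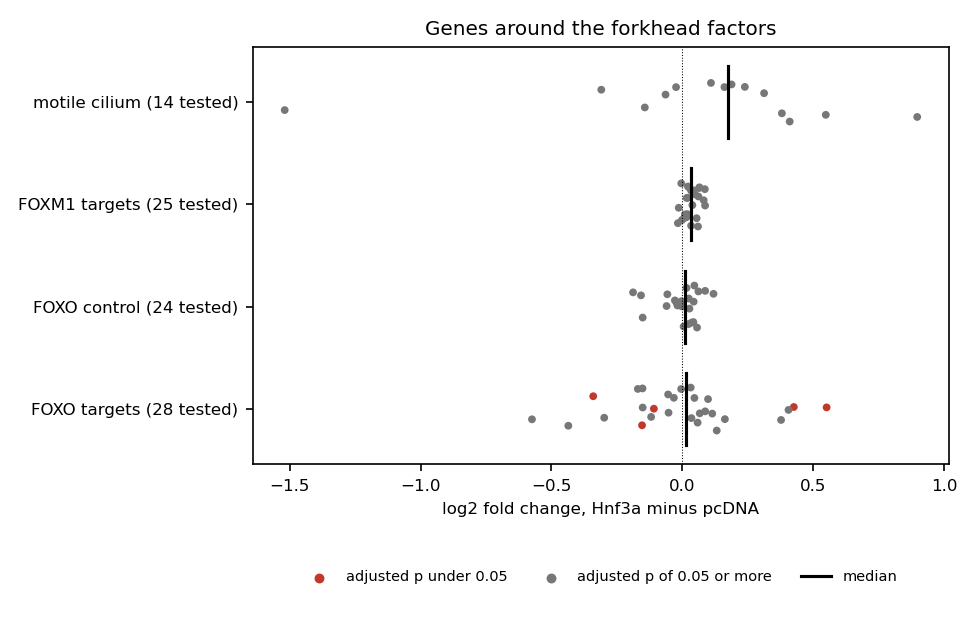
The log2 fold change (Hnf3a minus pcDNA) of each tested gene in the lists of FOXO target genes (28), FOXO control genes (24), FOXM1 target genes (25) and motile cilium genes (14), with black bars at the medians and red points for an adjusted p under 0.05 by edgeR. The 5 red points are all FOXO targets, 2 above and 3 below 0, and the FOXM1 targets lie within -0.017 to 0.087.

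Neither Foxm1 nor any of its listed targets passed the test. Foxm1 was at 22.2, 22.6 and 21.0 FPKM in Hnf3a and at 21.3, 21.5 and 22.9 FPKM in pcDNA, with a log2 fold change of -0.0054 (95% interval -0.089 to 0.079) whose sign changed with the scaling. The 25 FOXM1 target genes, among them the cyclins Ccnb1 and Ccnb2, the kinases Plk1 and Aurka and the kinetochore protein Cenpf, were all at 1 FPKM or more and were all tested. By edgeR 0 passed and 3 had an unadjusted p under 0.05, against 13.5% of all tested genes, and DESeq2 also called 0. Their log2 fold changes were above 0 for 21 of 25 but small, from -0.017 for Cks2 to 0.087 for Cdc20 (SE 0.0332, adjusted p = 0.246), with a median of 0.034.

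Foxk2 was at 24.6, 23.5 and 23.7 FPKM in Hnf3a and at 24.7, 23.9 and 24.3 FPKM in pcDNA, with a log2 fold change of -0.027 (95% interval -0.10 to 0.047). Its relative Foxk1 was at 7.08, 6.27 and 6.08 FPKM in Hnf3a and at 6.10, 5.67 and 6.25 FPKM in pcDNA (log2 fold change 0.10, 95% interval -0.030 to 0.23). For both genes the libraries overlapped.

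Foxj1, the factor that switches on the motile cilium programme, stood next below Foxp4 together with Foxo1, and most of the listed genes of that programme were under 1 FPKM. Its level was 12.8, 12.5 and 12.1 FPKM in Hnf3a and 11.8, 12.4 and 11.7 FPKM in pcDNA (log2 fold change 0.048, 95% interval -0.062 to 0.16). Of 20 listed genes of motile cilia, 1 reached 1 FPKM in pcDNA, Mns1 at 3.93, 4.17 and 4.04 FPKM, and the 20 together summed to 7.25 to 8.02 FPKM in pcDNA and 8.53 to 8.91 FPKM in Hnf3a. Axonemal dynein genes were near 0, with at most 4 counts for Dnah5, 13 for Dnah9, 20 for Dnah11 and 23 for Dnali1 in any library, as were Hydin of the central pair (4) and Tekt1 (4). Of 14 tested, 0 passed by edgeR or DESeq2 and 1 had an unadjusted p under 0.05, against 13.5% of all tested genes. It was Ccdc40, an assembly factor of ciliary dynein arms (log2 fold change 0.55, SE 0.182, adjusted p = 0.161 by edgeR). Mcidas, which acts upstream of Foxj1 in multiciliated cells, had at most 4 counts.

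Among the members of at least 1 FPKM, Foxp1 had the largest SE. Foxp1, a repressor known from lung, heart and lymphocytes, was at 2.89, 2.77 and 2.80 FPKM in Hnf3a and at 1.68, 2.87 and 2.95 FPKM in pcDNA. Replicate 1 of pcDNA stood low, with 1566 counts beside 2899 and 2968, while the other 5 libraries were alike. The log2 fold change was 0.16 (95% interval -0.49 to 0.82) with that library and -0.053 without it. Foxp4 was at 16.0, 15.3 and 15.3 FPKM in Hnf3a and at 15.1, 14.3 and 16.0 FPKM in pcDNA (log2 fold change 0.028, SE 0.0439). Foxp3 overlaps Ccdc22 and Ppp1r3f on the other strand and Flicr on its own, and the use of strand in counting is not given in the sources used here, so its 7 to 18 counts in pcDNA are uncertain. The T cell genes Cd4 and Cd8a had at most 4 and 3 counts in any library.

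Of the factors of kidney development, Foxc1 was at 9.75, 8.68 and 8.99 FPKM in Hnf3a and at 8.26, 8.19 and 9.32 FPKM in pcDNA (log2 fold change 0.082, SE 0.0585). Foxd1, which marks the stromal progenitors of the embryonic kidney, was at 1.24, 1.28 and 1.26 FPKM in Hnf3a and at 1.35, 1.21 and 1.12 FPKM in pcDNA (0.028, SE 0.109). Both genes overlapped between the groups. Their close relatives Foxc2 and Foxd2 were near 0 or at 0. Foxi1, the factor of intercalated cells, was not found by name among the listed genes, so it has no value here. Slc26a4 (pendrin), a transporter that Foxi1 is known to drive, fell from 0.616, 0.495 and 0.66 FPKM to 0.132, 0.116 and 0.193 FPKM (log2 fold change -1.99, SE 0.268, adjusted p = 0.000745 by edgeR), while Atp6v1b1, another gene of those cells, had at most 7 counts. Atp6v0d2, also listed for them, had 0, 32 and 28 counts in Hnf3a and 0 in each pcDNA library, so its counts were in the replicates that also held the fibroblast genes.

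The FOXN genes and Foxq1 overlapped between the groups except for Foxn3. Foxn3, a repressor linked to the DNA damage checkpoint, was at 2.53, 2.52 and 2.46 FPKM in Hnf3a and at 2.27, 2.35 and 2.39 FPKM in pcDNA, so all Hnf3a libraries were higher by a little (log2 fold change 0.090, SE 0.0506, 95% interval -0.019 to 0.20). Foxn2 was at 4.87, 4.96 and 4.601 FPKM in Hnf3a and at 4.78, 5.44 and 4.73 FPKM in pcDNA (-0.060, SE 0.0597). Foxn1, the factor of thymic epithelium and of hair, was at 1.35, 1.19 and 0.923 FPKM in Hnf3a and at 1.18, 1.20 and 1.36 FPKM in pcDNA (-0.12, SE 0.155). Neither gene was separate between the groups. Foxq1, known from hair and from epithelial cancers, was at 2.16, 2.08 and 2.69 FPKM in Hnf3a and at 1.95, 2.27 and 2.25 FPKM in pcDNA (0.091, SE 0.108).

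The widely expressed Foxj3 was at 6.13, 5.88 and 5.73 FPKM in Hnf3a and at 5.56, 5.70 and 6.12 FPKM in pcDNA (log2 fold change 0.021, SE 0.0446). Foxj2 was at 3.98, 3.996 and 3.66 FPKM in Hnf3a and at 3.13, 3.64 and 4.11 FPKM in pcDNA (0.089, SE 0.0868). Both genes overlapped between the groups, and the 3 pcDNA libraries of Foxj2 spread more than its Hnf3a libraries.

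Members of low level were few in counts. A fragment can add up to 4 counts in these files, so 12 counts, or about 3 fragments, were taken as the floor (0.169 to 0.198 CPM, counts scaled to the library total). Of the 32 genes, 20 were above it in all 6 libraries, 5 in some and 7 in none. Foxb1, a factor of the developing brain, had 43, 28 and 69 counts in Hnf3a and 31, 23 and 20 in pcDNA (log2 fold change 0.84, SE 0.426, adjusted p = 0.431 by edgeR). Foxl2 had 0, 32 and 18 counts in Hnf3a and 18, 17 and 7 in pcDNA, and its neighbour on the other strand, Foxl2os, had 7 to 19, so the source of these reads is uncertain. The 95% interval of the log2 fold change ran from -1.81 to 2.07 for Foxl2 and from -1.37 to 1.43 for Foxp3, so changes of these genes were not detectable at this depth.

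The 9 genes that did not pass the filter were Foxh1, a partner of SMAD proteins, with 7 to 15 counts over the 6 libraries, Foxs1 with 4 to 7, Foxp2, known from the brain, with 0 to 10, and Foxo6, Foxd4, Foxd2, Foxc2, Foxb2 and Foxl1. Foxd2 had 0, 14 and 18 counts in Hnf3a and 0, 0 and 2 in pcDNA. Its counts were in the same Hnf3a libraries, replicates 2 and 3, as those of the fibroblast genes (Col1a1 had 33, 2694 and 3099 counts in Hnf3a and 0, 16 and 5 in pcDNA), and the part of those cells' RNA in this was not tested. Foxd4 had 0, 7 and 8 counts in Hnf3a and 0, 3 and 4 in pcDNA. Foxc2, Foxb2 and Foxl1 had 0 counts in each pcDNA library and at most 2, 4 and 6 in an Hnf3a library, all under the floor.

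Promoter sequences of 300 bases (250 before the start of transcription and 50 after it) were found in the RefSeq table for build GRCm38.p6 for 17 of the 32 genes, 20 promoters in all. They were searched on both strands for the forkhead word TGTTTAC and its variants TGTTTAT and TGTTTGC, which do not overlap each other in a single match. TGTTTAC was in 0 of the 20 promoters and in 3.65% of all 32851, TGTTTAT in 3 and in 4.6%, and TGTTTGC in 2 and in 5.07%. Any of the 3 was in 4 of the 20 and in 12.5% of all. The matches were in promoters of Foxj3, Foxp1 and Foxp3. The Foxp1 match printed below is at position -77. Another Foxp1 promoter held TGTTTAT on the opposite strand at -92 and TGTTTGC at -167, which are not printed. The 15 members without a promoter included Foxf1, the only member called, so matches could not be set against the call. Foxa1's own promoter held TGTTTAC on the opposite strand, ahead of its start at position -141. The stretches are printed on the gene's strand, with the matched word in capitals.
Foxa1: tatactgctttGTAAACAaagtgagggcc
Foxj3: aagtccgaggcGCAAACActgcaaggcgc
Foxp1: ctgagtgtttgTGTTTATgcaaaggggcc
Foxp3: ataagaaaagaATAAACAaagtaagagag

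These 29-base stretches lie at chr12:57546235-57546263 on the minus strand for Foxa1, chr4:119539434-119539462 on the plus strand for Foxj3, chr6:99266575-99266603 on the minus strand for Foxp1, chrX:7579487-7579515 on the plus strand for Foxp3. A match of these letters is a description of the sequence, and binding was not measured in these files.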

How the data were processed

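PolyA RNA of 6 TKPTS samples was sequenced as paired reads of 150 bases with molecular identifiers and dUTP strand marking. The submitters' processing notes name cutadapt 1.9, HISAT2 2.0.4, UMI-tools, StringTie 1.3.4d, DESeq2, edgeR and build mm10, with no roles. The authors deposited 1 table holding FPKM and estimated counts per gene, and 0 value columns lacked a sample. The authors' estimated counts were whole numbers in which 1 fragment can add up to 4 counts. More genes held 4 counts than 3 or 5 in every library, and the factor behind this is not given in the sources used here.

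The counts were tested as deposited with edgeR 4.0.16 (quasi-likelihood, robust, filterByExpr, TMM, R 4.3.3), with Benjamini-Hochberg adjustment over all 17824 genes, and the SE is the log2 fold change divided by the root of F. Alternatives used DESeq2 1.42.0 and limma 3.58.1 on log2(FPKM + 0.1) and log2(FPKM + 1). The scripts were tested on simulated data. Groups were read as non-overlapping on normalized CPM. The members and lists were chosen with earlier results of these data known. Every member that passed the filter was named (1 is counted but not reported here), with all libraries where a group mean reached 1 FPKM or the adjusted p was under 0.05, and from each list at most 4 called genes with the smallest p. Coding sequences came from GENCODE vM21 and promoters from RefSeq.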

Additional observations from a re-analysis of the deposited data

How the results depend on the processing

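Depth limits the members with few counts, and 3 libraries a group limit the rest. Beside 15 other ways of processing, 1 was added that was chosen after seeing the data, which leaves out both Hnf3a replicates 2 and 3 and assumes that the lone Hnf3a library varies like the pcDNA libraries. Foxf1 and Foxo3 were the only members past the threshold in any alternative, and the cause of the losses and gains was not tested beyond what each alternative leaves out. The correlations by replicate number were -0.041, -0.010 and 0.010 for numbers 1, 2 and 3. They are not correlations of whole levels, since r between libraries ran from 0.981 to 0.988. With 1 value per number, they cannot decide whether libraries of the same number are paired for some genes. With the replicate number as a block 463 genes were called, beside 565 without it.

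The number of genes called over the whole table was 236 and 231 with limma on log2(FPKM + 0.1) and log2(FPKM + 1), 263 to 643 with 1 library left out and 322 without both Hnf3a replicates 2 and 3. The number of forkhead members called was 2 with all genes of at least 1 count, with genes that reached 1 FPKM in 3 or more libraries, with DESeq2 and with counts divided by 4. It was 0 with both limma fits, with the replicate block and without both Hnf3a replicates 2 and 3, and 0 to 2 with 1 library left out. The number of FOXO target genes called was 8 with genes of at least 1 FPKM, 11 with DESeq2, 1 with each limma fit, 9 with counts divided by 4, 2 with the replicate block, 3 without both Hnf3a replicates 2 and 3 and 2 to 6 with 1 library left out. The number of FOXO control genes called was 1 with genes of at least 1 FPKM, 2 with DESeq2, 1 with counts divided by 4 and 0 to 1 with 1 library left out. From counts, the FOXA share was 53.9% in Hnf3a and 3.69% in pcDNA.

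The sign of the log2 fold change turned for 15 of the 30 named genes, all with an adjusted p far from the threshold. For Foxm1 it was 0.0062 with total-count scaling, 0.00028 with genes of at least 1 FPKM, and 0.0032 and 0.0030 with limma. For Foxl2 it was -6.23e-05 and for Foxp3 -0.0063 with limma on log2(FPKM + 0.1), and -0.20 and -0.043 with the replicate block. Without both Hnf3a replicates 2 and 3 it was 0.25 for Foxa3, 0.020 for Foxk2, 0.020 for Foxm1, 0.11 for Foxn1, -0.0056 for Foxf2, -6.84 for Foxl2 (0 counts in the lone library, so a fitted value and no bound) and -1.50 for Foxp3. With 1 library left out it ran from -0.12 to 0.43 for Foxa2, -0.62 to 0.19 for Foxa3, -0.023 to 0.027 for Foxm1, -0.010 to 0.068 for Foxp4, -0.010 to 0.061 for Foxj3, -0.097 to 0.0086 for Foxn2, -0.0045 to 0.19 for Foxj2, -0.053 to 0.30 for Foxp1, -0.031 to 0.17 for Foxq1, -0.25 to 0.014 for Foxn1, -0.034 to 0.10 for Foxd1, -0.69 to 0.70 for Foxl2 and -0.35 to 0.43 for Foxp3.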
